A study of Homo sapiens with 18 samples.

Results

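The mitotic spindle and the machinery that divides the cell after it are built from structural proteins, and 10 of their genes are described here in U87 (U87MG), a widely used line of human glioblastoma cells. The genes are ASPM, HMMR, DLGAP5, NUSAP1, CKAP2L, PRC1, RACGAP1, ECT2, ANLN and CEP55, 10 of the 58302 genes in the RNA-seq count table. They were chosen by function, with the change of mitotic genes between these same libraries already known, so their own changes are given as a description, without a test. Compared were RNA-seq libraries of 2 control replicates titled WT under normal growth conditions and 2 replicates given 10 μM Erastin for 72 h. All were grown in DMEM with serum. The titles of the controls name no vehicle and no time, and the paper names DMSO as control for its Western blot. The labels number the replicates without saying whether they were separate cultures, so p-values measure only the spread between these libraries, which may be technical. Erastin starves cells of cystine by blocking its transporter, which leads to ferroptosis, a death driven by iron and lipid peroxidation. One cell line, a single dose and a single time point limit the model, and in bulk RNA fewer cells in mitosis and less RNA per cell cannot be told apart. Between 29412656 and 31513519 reads were counted on genes in each library, and all 10 genes passed the filter on low counts, with at least 88 counts in every library.

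As background, ASPM and HMMR act at the spindle poles. DLGAP5 (also called HURP), NUSAP1 and CKAP2L bind and stabilize spindle microtubules. After chromosomes separate, PRC1 bundles antiparallel microtubules in the midzone between them, and RACGAP1 joins the kinesin KIF23 to form centralspindlin. Centralspindlin recruits ECT2, the exchange factor that activates the GTPase RHOA at the equator, and ANLN (anillin) ties RHOA to actin, myosin and septins in the contractile ring. CEP55 gathers at the midbody, the last bridge between daughter cells, where it brings in PDCD6IP (ALIX) and TSG101 and through them the ESCRT-III filaments that sever the bridge. Most of these genes are transcribed in G2 and mitosis. Many promoters active in that phase carry a cell cycle genes homology region (CHR) and CCAAT boxes, the latter bound by NF-Y.

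Promoter sequence was not used to choose the genes, so the CHR core (TTTGAA, or TTCAAA on the other strand) and the CCAAT box (CCAAT, or ATTGG on the other strand) were searched in RefSeq promoter windows of GRCh38.p14. Each window holds 300 bases, from 250 before to 50 after the annotated start. An entry was found for 9 of the 10 genes, and RACGAP1 was not matched. Of all 35116 windows, 15.2% held the CHR core and 34.6% the CCAAT box. Counted by gene, with any window of a gene, 18.2% of 27305 genes had the CHR core, 39.7% the CCAAT box and 8.37% both. The CHR core was present in all 9 genes with an entry, and the CCAAT box in 8 of the 9, ANLN being the exception. In 7 of the 9 genes the CHR core began within 30 bases of the start, where 3.74% of all genes had one. A match describes letters in a window and not a bound site. The following stretches of 100 bases are shown because they hold the CHR core nearest to the start, or for ECT2 the one before it, with CHR cores and CCAAT boxes on either strand in capitals, 5′ to 3′ on the strand of the gene. They run from 80 bases before to 19 bases after the start, except those of ASPM and ECT2, which run from 135 to 36 bases before it. Their places are chr1:197146705-197146804 for ASPM, chr5:163460552-163460651 for HMMR, chr14:55191566-55191665 for DLGAP5, chr15:41332801-41332900 for NUSAP1, chr2:112764590-112764689 for CKAP2L, chr15:90994516-90994615 for PRC1, chr3:172750591-172750690 for ECT2, chr7:36389782-36389881 for ANLN and chr10:93496532-93496631 for CEP55. ASPM, DLGAP5, CKAP2L and PRC1 lie on the minus strand and the other printed genes on the plus strand.
ASPM: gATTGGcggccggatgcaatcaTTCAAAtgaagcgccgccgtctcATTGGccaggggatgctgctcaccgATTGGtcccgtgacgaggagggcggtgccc
HMMR: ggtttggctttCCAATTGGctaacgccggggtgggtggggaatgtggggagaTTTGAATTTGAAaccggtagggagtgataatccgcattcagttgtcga
DLGAP5: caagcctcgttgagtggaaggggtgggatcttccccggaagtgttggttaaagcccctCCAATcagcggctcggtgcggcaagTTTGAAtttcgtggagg
NUSAP1: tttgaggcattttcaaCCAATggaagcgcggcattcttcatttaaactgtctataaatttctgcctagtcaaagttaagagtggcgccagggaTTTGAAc
CKAP2L: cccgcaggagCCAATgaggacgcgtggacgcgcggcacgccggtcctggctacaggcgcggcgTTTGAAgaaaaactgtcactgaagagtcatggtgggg
PRC1: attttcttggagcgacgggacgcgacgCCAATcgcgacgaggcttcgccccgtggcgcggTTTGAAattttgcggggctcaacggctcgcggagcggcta
ECT2: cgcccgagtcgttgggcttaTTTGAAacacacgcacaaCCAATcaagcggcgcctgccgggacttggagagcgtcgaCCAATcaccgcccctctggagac
ANLN: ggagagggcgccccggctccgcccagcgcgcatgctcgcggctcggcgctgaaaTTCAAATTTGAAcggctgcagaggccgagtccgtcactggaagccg
CEP55: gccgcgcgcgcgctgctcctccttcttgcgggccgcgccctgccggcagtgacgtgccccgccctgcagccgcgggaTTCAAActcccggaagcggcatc

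In PRC1, ANLN, HMMR and CKAP2L the CHR core closest to the start lay 20, 20, 22 and 17 bases before it, on the strand of the gene. In ANLN this core followed directly on a copy in the opposite direction, and in HMMR on a second copy in the same direction. The CHR core of CEP55 that begins 3 bases before the start was on the other strand, and those of DLGAP5 and NUSAP1 began 3 and 13 bases after the start. ASPM differed, with a CHR core 113 bases before the start and 4 CCAAT boxes around it, all on the other strand. In the first of the 2 windows of ECT2, the CHR core lay 115 bases before the start and a second 34 bases after it. In the second window of ECT2 the cores lay 242 and 182 bases before its start, and no CCAAT box was found.

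**Figure D1:**
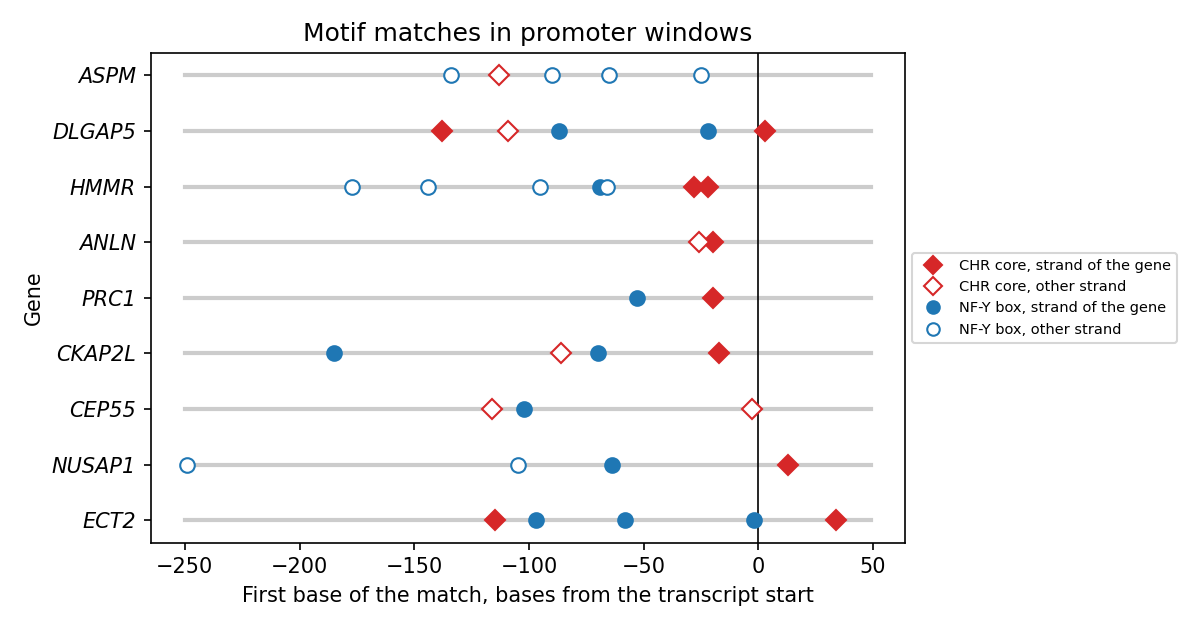
Positions of the CHR core (diamonds) and of the CCAAT box, named by its binding factor as NF-Y box (circles), along the RefSeq promoter windows of 9 genes, in bases from the transcript start. Filled symbols are on the strand of the gene and open ones on the other strand. The first window of ECT2 is drawn. In 7 of the 9 genes a CHR core begins within 30 bases of the start, and in ASPM and ECT2 the nearest lies farther away.

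Expression is given as CPM, in which the counts of each library were brought to 1 scale with the TMM factors of edgeR. At the spindle poles, ASPM (ENSG00000066279, chromosome 1, 197084128 to 197146694) had 93.8 and 90.8 CPM in control cells and 3.14 and 4.55 CPM with Erastin. The groups were far apart, and 94 and 143 counts were left with Erastin of 2867 and 2822 in control cells. The mean went from 92.3 ± 2.07 to 3.85 ± 0.996 CPM (SD, n = 2 each), 24.0-fold lower, and by its log2 fold change of −4.58 ASPM ranked 30 from the lowest of the 16751 tested genes. HMMR (ENSG00000072571, chromosome 5, 163460203 to 163491945), which encodes a hyaluronan-binding protein that also sits on spindle poles, had 59.1 and 56.6 CPM in control cells and 5.08 and 3.15 CPM with Erastin. The groups did not overlap, and the mean was 14.0-fold lower (log2 fold change −3.81).

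Among the proteins of spindle microtubules, DLGAP5 (ENSG00000126787, chromosome 14, 55148112 to 55191678) came close to ASPM, with 75.3 and 76.0 CPM in control cells and 3.74 and 2.80 CPM with Erastin. Its mean was 23.1-fold lower (log2 fold change −4.53). CKAP2L (ENSG00000169607, chromosome 2, 112736607 to 112764677) had 41.6 and 46.1 CPM in control cells and 4.48 and 5.79 CPM with Erastin, 8.54-fold lower (log2 fold change −3.09). NUSAP1, a gene whose protein holds microtubules near chromosomes (ENSG00000137804, chromosome 15, 41332694 to 41381050), kept more of its level. Its values were 77.7 and 85.0 CPM in control cells and 11.6 and 12.4 CPM with Erastin, 6.76-fold lower (log2 fold change −2.76).

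The 3 genes of the midzone differed most among themselves. PRC1 (ENSG00000198901, chromosome 15, 90966038 to 90995629) had 129 and 127 CPM in control cells and 13.2 and 12.7 CPM with Erastin, 9.89-fold lower (log2 fold change −3.31). RACGAP1 (ENSG00000161800, chromosome 12, 49976923 to 50033136) had 118 and 115 CPM in control cells and 33.0 and 32.7 CPM with Erastin, 3.55-fold lower (log2 fold change −1.83). ECT2 (ENSG00000114346, chromosome 3, 172750682 to 172821474) had 139 and 156 CPM in control cells and 78.3 and 82.9 CPM with Erastin. Its libraries did not overlap between the groups either, but its mean was only 1.83-fold lower, from 147 ± 12.2 to 80.6 ± 3.21 CPM (SD, n = 2). With a log2 fold change of −0.87, ECT2 was the 1 gene of the 10 that stayed above −1. For the contractile ring, ANLN (ENSG00000011426, chromosome 7, 36389806 to 36453791) had the highest CPM of the 10 genes in control cells, 183 and 189, and 15.7 and 19.5 CPM with Erastin, 10.6-fold lower (log2 fold change −3.40). For abscission, CEP55 (ENSG00000138180, chromosome 10, 93496632 to 93529092) had 97.1 and 98.0 CPM in control cells and 11.2 and 14.1 CPM with Erastin, 7.71-fold lower (log2 fold change −2.95).

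**Figure D2:**
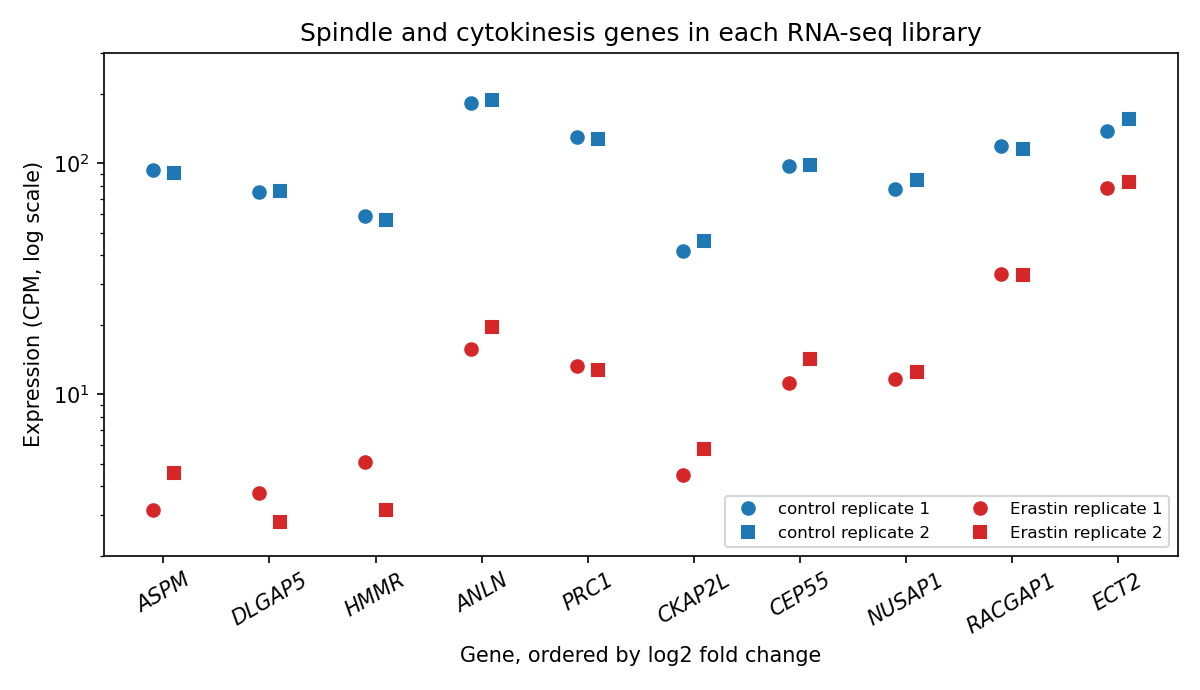
Expression of the 10 genes in the 4 RNA-seq libraries, in CPM on a log scale, ordered by log2 fold change from ASPM to ECT2. Each point is 1 library, blue for control and red for Erastin. For every gene both red points lie below both blue points, and the gap narrows from 24.0-fold for ASPM to 1.83-fold for ECT2.

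In all 10 genes both Erastin libraries lay below both control libraries, a pattern shown by 36.9% of the tested genes. Of the 10 genes, 9 had a log2 fold change of −1 or less, compared with 11.7% of tested genes, and 6 had −3 or less, compared with 1.13%. Nothing is read from these counts, since the same contrast was known when the genes were chosen. Their median log2 fold change was −3.20, and that of all tested genes was −0.00259. The range of replicate differences over the 10 genes was narrower in control cells than with Erastin. In control cells the log2 ratio of replicate 2 to replicate 1 ran from −0.06 for HMMR to 0.17 for ECT2, whereas with Erastin it ran from −0.69 for HMMR to 0.53 for ASPM. Erastin replicate 2 was above replicate 1 for 6 of the 10 genes and below it for 4, and ASPM, ANLN, CKAP2L and CEP55 moved opposite to DLGAP5 and HMMR. Behind the ratios of DLGAP5 and HMMR with Erastin stood 112 and 88 counts and 152 and 99 counts.

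The 10 genes summed to 1014 and 1038 CPM in control cells and 180 and 191 CPM with Erastin, 5.54-fold lower, and the composition of this sum changed. ECT2 made up 13.7% and 15.0% of the sum in control cells and 43.6% and 43.5% with Erastin. Levels were compared between genes per exon length, as TPM, counts divided by exon length and scaled to the same total in each library. In control cells the mean level ran from 107 TPM for ANLN to 29.1 TPM for CKAP2L, a 3.67-fold range, and ANLN, CEP55, NUSAP1, ECT2 and RACGAP1, which led in this order, overlapped from each to the next between their 2 libraries. ASPM, with 29.3 TPM, overlapped CKAP2L. With Erastin the order changed to ECT2 with 57.8 TPM, RACGAP1 with 28.9 TPM, NUSAP1 with 16.5 TPM and CEP55 with 15.2 TPM, followed by ANLN, PRC1, HMMR, CKAP2L and DLGAP5, and by ASPM with 1.39 TPM, a 41.5-fold range. Here ECT2 was apart from RACGAP1 and RACGAP1 from NUSAP1, while NUSAP1 and CEP55 overlapped, as did HMMR, CKAP2L and DLGAP5 from each to the next. With the length of the longest GENCODE transcript in place of the exon length, 5 of the 10 genes changed rank in control cells, ANLN and CEP55 staying in front.

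**Figure D3:**
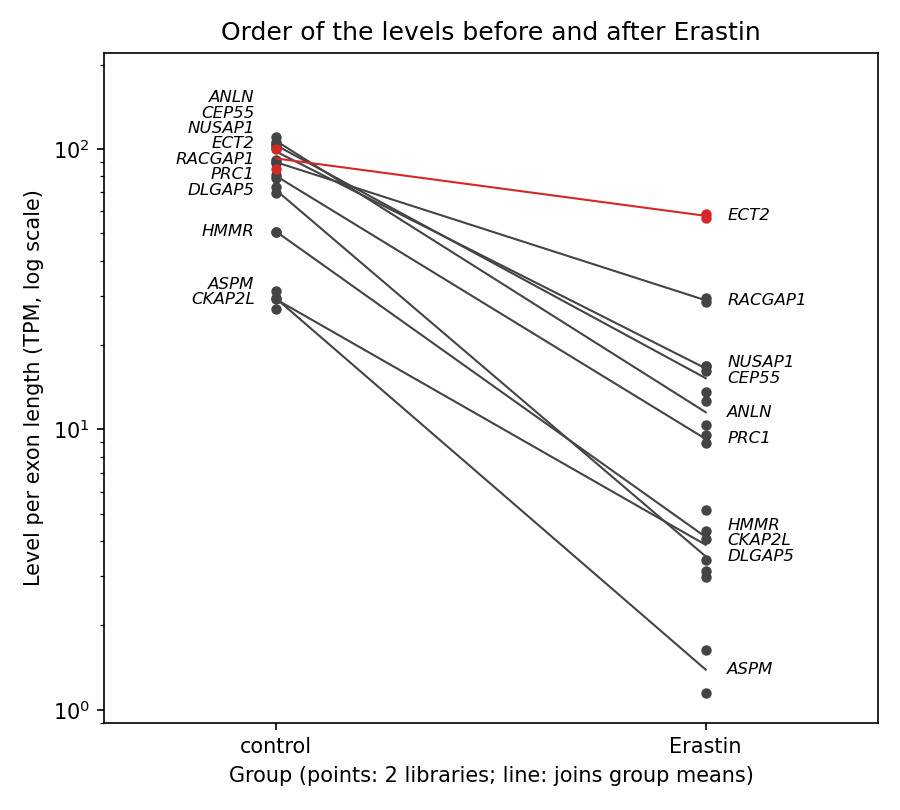
Level per exon length of the 10 genes in control and Erastin-treated cells, in TPM on a log scale. Points are the 2 libraries of a group and lines join group means, with ECT2 in red. The levels span a 3.67-fold range in control cells and a 41.5-fold range with Erastin, where ECT2 leads and ASPM is lowest.

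The genes these 10 work with, and paralogs of the 10, were taken from lists written from general knowledge. They were tested by edgeR's quasi-likelihood test within the fit of all 16751 genes. The lists were chosen with earlier results of these data known, so their counts of called genes are descriptions and no independent test. A gene was called when its fitted log2 fold change reached 1 or −1 and its Benjamini-Hochberg adjusted p was under 0.05, which 6.24% of tested genes passed as higher and 9.34% as lower, 15.6% in either direction. Of the central spindle partners, kinesins, chromosomal passenger proteins and PLK1 among them, all 11 were called lower, with a median log2 fold change of −2.98. PLK1, a mitotic kinase, had 118 and 101 CPM in control cells and 4.18 and 5.38 CPM with Erastin (log2 fold change −4.51, adjusted p = 3.98e-10 from edgeR). KIF20A, a kinesin of the midzone, fell by 4.35 on the log2 scale (adjusted p = 7.21e-10 from edgeR). KIF23, the partner of RACGAP1 in centralspindlin, had 103 and 105 CPM in control cells and 16.4 and 15.3 CPM with Erastin, a log2 fold change of −2.71 beside the −1.83 of RACGAP1 (adjusted p = 7.04e-10 from edgeR for KIF23). KIF4A, the kinesin that binds PRC1 at the midzone, fell by 2.80 on the same scale (adjusted p = 4.43e-09 from edgeR), beside −3.31 for PRC1.

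Of 25 genes of spindle poles and spindle microtubules, 8 were called lower and 0 higher, with a median log2 fold change of −0.35. By the edgeR adjusted p alone, with any size of change, 14 were lower and 3 higher, against 23.7% and 23.2% of tested genes. TPX2, which targets Aurora A to the spindle and works with HMMR, fell from 264 and 242 CPM to 42.4 and 42.1 CPM (log2 fold change −2.58, adjusted p = 4.06e-10 from edgeR). TACC3 fell by 2.50 on the log2 scale (adjusted p = 1.18e-08 from edgeR). CKAP2, the paralog of CKAP2L, fell by 1.15 (adjusted p = 7.93e-07 from edgeR), beside −3.09 for CKAP2L. Among 19 genes of the gamma-tubulin ring and augmin complexes, which start new microtubules, 2 were called lower and 0 higher. The 2 made up 10.5% of this list, against 9.34% of all tested genes. All 19 had a log2 fold change below 0, some of them barely, as the values ran from −1.38 to −0.012 with a median of −0.27. The median of all tested genes was −0.00259, and their share below 0 was not counted. By the adjusted p alone 11 of the 19 were lower and 0 higher, or 8 lower with library totals or with DESeq2. The called genes were the augmin subunits HAUS4 and HAUS8, with log2 fold changes of −1.38 and −1.30 (adjusted p = 4.15e-04 and 3.72e-05 from edgeR).

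Of 22 tested genes of the contractile ring, out of 24 listed, 2 (9.09%, against 9.34% of all tested genes) were called lower and 0 higher. These were the formin DIAPH3, with a log2 fold change of −2.53 (adjusted p = 2.01e-08 from edgeR), and CIT, the citron kinase of the midbody, with 122 and 121 CPM in control cells and 29.3 and 30.6 CPM with Erastin (log2 fold change −2.02, adjusted p = 1.95e-09 from edgeR). RHOA, the GTPase that ECT2 activates, had 711 and 712 CPM in control cells and 727 and 670 CPM with Erastin, with overlapping groups (log2 fold change −0.03, adjusted p = 0.766 from edgeR). MYH9, the main non-muscle myosin heavy chain, had 844 and 706 CPM in control cells and 744 and 716 CPM with Erastin (log2 fold change −0.09, adjusted p = 0.412 from edgeR). The list had a median log2 fold change of −0.06, beside −3.40 for ANLN. By the adjusted p alone 7 of its 22 tested genes were lower and 3 higher, against 23.7% and 23.2% of all tested genes.

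Of the 29 ESCRT and abscission genes, 28 were tested. None was called in either direction by edgeR, 0 passed the fold threshold at an unadjusted p under 0.05, and DESeq2 also called 0. By the adjusted p alone 12 of the 28 rose and 2 fell, against 23.2% and 23.7% of all tested genes. PDCD6IP, the ESCRT adaptor that CEP55 binds, rose from 281 and 289 CPM to 416 and 410 CPM (log2 fold change 0.53, adjusted p = 2.55e-05 from edgeR), below the fold threshold. TSG101, the other partner of CEP55, rose from 88.6 and 81.8 CPM to 108 and 110 CPM (log2 fold change 0.36, adjusted p = 0.00159 from edgeR). For CEP55 the Erastin libraries thus lay below the control libraries and for its 2 partners above them, without overlap between groups for any of the 3. Such separation is common, since 36.9% of tested genes had both Erastin libraries below both control libraries. The share above was not counted. Scaling by library totals left 13 genes of this list higher and 1 lower by the adjusted p alone. Of the 6 paralogs of the 10 genes, DLGAP2 and DLGAP3 had 0 counts in every library and ECT2L at most 7. DLGAP4, a relative of DLGAP5 that scaffolds synapses, had 5338 and 5105 counts in control cells and 4215 and 5375 with Erastin (log2 fold change −0.12, adjusted p = 0.298 from edgeR), and DLGAP1 was not called.

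**Figure D4:**
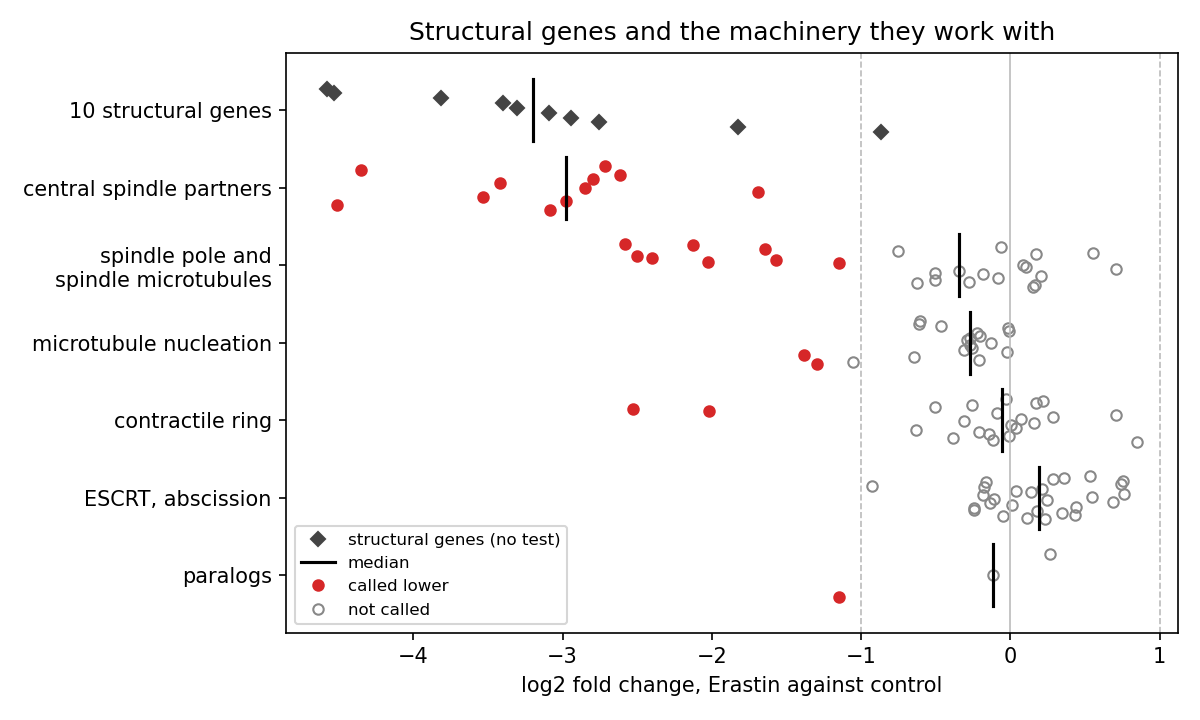
Log2 fold change, Erastin against control, of the 10 structural genes (diamonds, not tested) and of the tested genes of 6 lists (circles). The list of paralogs is a gene family list, and CKAP2 is drawn both there and with the spindle genes. Red circles were called lower, open circles were not called, black bars are medians and dashed lines mark the fold thresholds. The central spindle partners lie at −1.69 or lower, whereas the ESCRT genes lie between −0.93 and 0.76.

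The promoter windows of the listed genes were searched in the same way. The CHR core was found in 12 of the 20 genes with an entry among the 23 called lower, and in 11 of the 74 with an entry among the 84 that were not called. The 10 central spindle partners with an entry are among these 20 genes, and 8 of them had the CHR core. The CCAAT box was found in 14 of the 20 called genes, all 10 central spindle partners included, and in 37 of the 74 that were not called. Over all genes with an entry the shares were the 18.2% and 39.7% given above. These shares are descriptions, and the called genes were defined by expression only.

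Over the 4 libraries, KIF18A, GTSE1, PBK, CENPF and KNL1 had the profiles most like the mean profile of the 10 genes. Likeness was the Euclidean distance between log2 CPM values centred on the control mean, over the 9498 other tested genes that averaged 10 CPM or more, and it ran from 0.0871 for KIF18A to 0.185 for KNL1. Centred in this way, likeness is mostly a match on log2 fold change, which was −3.07 for KIF18A and −3.23 for KNL1. Of the 10 genes themselves, CKAP2L lay closest to their mean profile, at 0.236, and ECT2 farthest, at 3.18. KIF18A, a kinesin that limits chromosome oscillation, had 47.1 and 47.3 CPM in control cells and 5.58 and 5.67 CPM with Erastin.

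Reads that fell on more than 1 gene or place were not counted, and strand was not used. PRC1-AS1, antisense to PRC1 over 406 exon bases or 7.35% of its exon length, had 19 and 12 counts in control cells and 11 and 9 with Erastin. The largest overlap was that of NT5DC4 with CKAP2L, 9.08% of exon bases, and NT5DC4 had at most 6 counts in a library. MATCAP2, on the strand opposite to ANLN, shared 78 exon bases with it, 1.30% of the exon length of ANLN. It had 405 and 456 counts in control cells and 271 and 313 with Erastin. AQP6, opposite to RACGAP1, shared 3.05% of the exon bases of RACGAP1 and had at most 22 counts in a library. The pseudogene copies DLGAP5P1, DLGAP5P2, RACGAP1P1 and CKAP2LP1 and the antisense gene HMMR-AS1 had at most 2 counts in any library.

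Markers of the labelled cells were partly present. VIM and CD44, mesenchymal genes that U87MG cells express, led a list of 6 glioma line markers, NES had 1277 and 972 counts in control cells and 105 and 77 with Erastin, whereas GFAP was low, with 46 and 41 counts in control cells and 69 and 81 with Erastin. SOX2 had 2 and 0 counts in control cells and 4 and 6 with Erastin, and S100B at most 2. This list summed to 3994 and 3920 CPM in control cells and 2670 and 2859 CPM with Erastin. Immune, epithelial and oligodendrocyte markers summed to less than 1 CPM in every library. Of the 3 neuronal markers, 2 reached 1 CPM in some library, and the sum was 37.0 and 40.8 CPM in control cells and 4.75 and 5.38 CPM with Erastin, most of it SNAP25. The 3 endothelial markers summed to 4.64 and 6.18 CPM and to 1.64 and 2.07 CPM. Mitochondrial transcripts took 7.85% and 7.23% of counts in control cells and 2.80% and 3.54% with Erastin. The part of these differences in the values of the 10 genes was not tested.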

How the data were processed

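RNA-seq reads of U87MG cells had been mapped by the authors with HISAT2 to hg38, and the deposited raw counts per gene were made, per the file headers, with featureCounts 2.0.3 and the Ensembl release 90 annotation of GRCh38. The methods name htseq-count instead. The deposited table was tested for decimals that estimated counts would have, and rounding changed 0 values. Both reads of a pair had to map, reads on several genes or places were left out, strand was ignored, and by the command the 2 reads of a pair were probably counted separately.

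The counts were fitted with edgeR 4.0.16 under R 4.3.3. Genes were kept by filterByExpr (minimum count 10), TMM factors lay between 0.971 and 1.02, and the quasi-likelihood test compared 2 control with 2 Erastin libraries over 16751 genes, without a block. Tests had both sides, with Benjamini-Hochberg adjustment over all tested genes. An exact permutation test of 2 against 2 libraries reaches at best p = 0.333, so p-values rest on a variance shared across genes, with a biological coefficient of variation of 10.3%. On simulated data for this comparison, edgeR recovered 193 of 200 changed genes among 16751 and called 2 unchanged ones, and DESeq2 1.42.0 recovered 179 and called 0. Each changed gene had been given a log2 change of 2 up or down, and all genes shared a single dispersion. Recovery of smaller changes near the fold threshold was therefore not measured. An unchanged gene also had to pass the fold threshold to be called, so false calls by the adjusted p alone were not measured. TPM used the exon lengths of the deposited table.

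The 10 genes, the 6 lists of partners and paralogs and the marker lists were chosen with earlier results of these data known. Named from each list were the called genes with the 2 greatest rises and the 2 greatest falls, together with 10 direct partners of the structural genes, of which 1 is not reported here. DLGAP1, DLGAP2, DLGAP3, DLGAP4, ECT2L, SNAP25 and VPS37D were named after their values were seen. The 5 genes with the nearest profile and genes that overlap or copy a structural gene were added by rule. Of the overlapping genes, those that share exon bases with a structural gene are named. Promoter windows came from RefSeq. Alternatives were RLE size factors, library totals, no filter on low counts, a minimum of 10 counts in all libraries, DESeq2, a replicate block, each library left out, and counts divided by 2 and rounded up. ChIP-seq and HiChIP data were not analysed here.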

Additional observations from a re-analysis of the deposited data

How the results depend on the processing

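Over the 11 alternatives, all 121 fold changes of the 10 structural genes and of their median kept their direction, and 130 of 132 list counts stayed within 1.5 times. The count of genes called higher was 0 for every list in every setting, so many of these matches are of 0 with 0. Leaving out 1 library at a time, with the lone library of a group assumed to vary like the other group, the median log2 fold change of the 10 genes ran from −3.28 to −3.09, that of ASPM from −4.87 to −4.34, that of HMMR from −4.20 to −3.51 and that of ECT2 from −0.95 to −0.79. The count of ESCRT genes called lower ran from 0 to 1, the gene being VPS37D, which passed without control replicate 1 or without Erastin replicate 2. Over all genes, DESeq2 called 903 higher and 1411 lower, and the edgeR calls ran from 791 to 1160 higher and from 1341 to 1713 lower. The labels number the replicates without naming a pairing, and deviations of same-numbered libraries had a correlation of 0.0203 across genes. With the replicate block, 1039 genes were called higher and 1568 lower, and no count of called list genes changed, while by the adjusted p alone 13 ESCRT genes were higher and 3 lower. Library totals moved the median of all tested genes to 0.0471. Depth limited ASPM, DLGAP5 and HMMR most, with 88 to 152 counts left in Erastin libraries (counting error only, as the protocol names no molecular identifiers).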
